A study of Mus musculus with 4 samples.

Results

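The cells described here are the 747 bone marrow cells with the least surface Ly6C in a pool of 7492 hashed cells from female mice, out of 8718 cells of the series that passed the same filters. They were selected on the count of the Ly6C antibody tag, an oligonucleotide-labelled antibody read out beside the RNA of each cell, as the 10% of cells with the lowest count. A threshold at 273 tag molecules (unique molecular identifiers, UMIs) gave 9.97% of the cells. All members stem from 10 wild-type C57BL/6 female mice, 5 of them young (15 weeks) and 5 old (26.5 months), whose bone marrow cells were marked with 1 hashtag antibody per mouse, pooled, and sorted as Ly6G-CD11b+CD115+Ly6Chi monocytes. The remaining 6745 cells of the same mice served as the comparison. The male pool carried no antibody tags, so its 1226 cells could not contribute members.

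Ly6C is a small protein held on the membrane by a glycosylphosphatidylinositol (GPI) anchor, and in mice its surface level separates classical Ly6Chi monocytes, which leave the marrow through the chemokine receptor CCR2, from the patrolling Ly6Clow monocytes that descend from them and depend on the transcription factor Nr4a1. The antibody recognises the products of Ly6c1 and Ly6c2, neighbouring genes on chromosome 15, of which monocytes use Ly6c2 (GRCm38, chr15:75108158-75111970, minus strand). Classical monocytes of the marrow arise along a dendritic-cell-like and a neutrophil-like route, called DCMo and NeuMo in this study.

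Each mouse is known from its hashtag oligonucleotide, and the 15-base sequences of the mice with the largest and the smallest share of members are shown because every count per mouse below rests on reading them apart.
old 1: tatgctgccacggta
young 3: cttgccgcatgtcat
Hashtags 1 to 5 marked only young mice and the others only old mice, so hashtag antibody and age cannot be told apart. Of 10433 barcodes in this pool, 9898 had over 200 genes and under 5% mitochondrial UMIs, and 2406 of these were left out because no hashtag held 70% of the hashtag UMIs. That filter also removed cells that mixed 2 mice without 1 hashtag reaching 70%, while more uneven mixtures could pass it. No further doublet caller was run, and cells that mix RNA of 1 mouse stay in the data. The pools shared 0 cell barcodes. Members numbered 100, 62, 122, 118 and 40 in old mice 1 to 5, and 51, 50, 14, 137 and 53 in young mice 1 to 5. Their summed RNA ranged from 101497 UMIs in young mouse 3 to 1384604 UMIs in young mouse 4, against 2721991 to 20324382 UMIs in the remaining cells, so member values of young mouse 3 carry the largest counting error. The mice are the replicates in every test below.

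The members were the lower tail of the Ly6C tag counts, cut at a chosen share of cells. Their median Ly6C tag count was 220, with a range of 3 to 273, against 522 in the remaining cells, which began at 274. These values chose the members and are given as a description. The 100 cells just inside the threshold held 261 to 273 tag UMIs and the 100 just outside held 274 to 283. Ly6c2 RNA stood at 2089 CPM (UMI counts scaled to a common library size) just inside and 2270 CPM just outside, and Cd209a, a C-type lectin of dendritic cells, at 76.8 and 70.6 CPM. S100a9, a calprotectin subunit, differed more, at 18.8 and 1254 CPM. These values pool the 100 cells of each band over mice, and 1 of the remaining cells alone held 1985 S100a9 UMIs. No step at the threshold is read from them. The 100 lowest cells had 2192 CPM of Ly6c2 RNA. The label "low" therefore refers to the tag within a Ly6Chi sort. No tag in the panel was a negative control, so the count that an unstained cell would give is unknown.

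**Figure D1:**
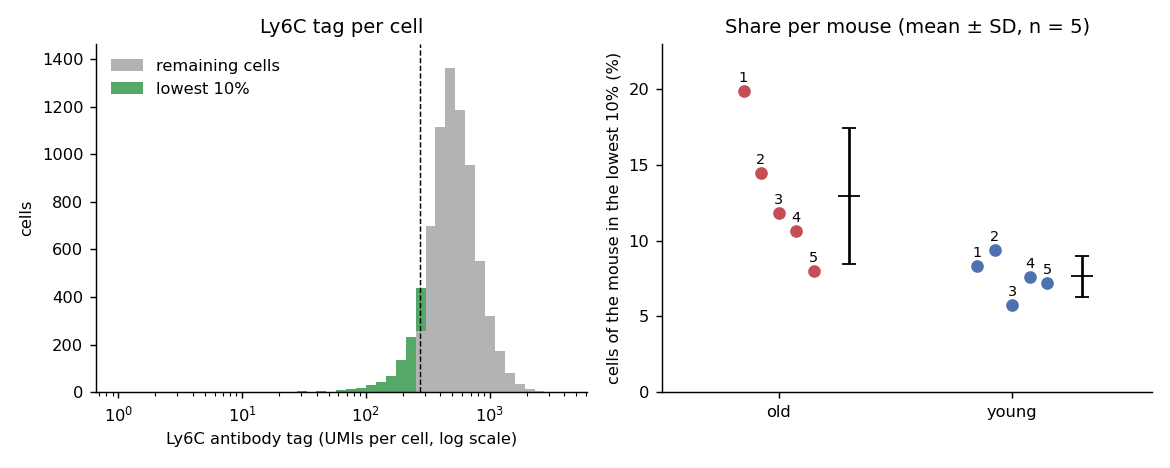
Left, number of cells (y axis) by Ly6C tag UMIs per cell (x axis, log scale), with the members in green, the remaining cells in grey and the threshold dashed. Right, percent of each mouse's cells that are members (y axis) in 5 old and 5 young mice numbered as in the text, with mean ± SD; old mice 1 to 4 lie between 10.7% and 19.9%, above the highest young mouse at 9.36%, and old mouse 5 at 8.0% lies among the young mice.

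Cells with low Ly6C had lower counts of the other antibodies as well, and less RNA. The CD11b tag (integrin alpha M, a myeloid adhesion receptor) had medians per mouse of 17 to 32.5 with a median of 22.5 in members, and 35 to 48 with a median of 42.8 in the remaining cells, with no overlap between the classes. It was lower in members of 10 of 10 mice, by 43.3% on the log2(median + 1) scale (log2 difference -0.82 ± 0.27, SD, n = 10, two-sided exact sign-flip test, adjusted p = 0.00419 over 15 measures). The hashtag, which binds antigens unrelated to Ly6C, was lower by 28.8% in 10 of 10 mice, with medians per mouse of 136 to 270.5 in members and 227 to 358.5 in remaining cells (exact sign-flip test, adjusted p = 0.00419). These ranges overlapped between mice while the direction was the same within each mouse. The sum of the 5 tags other than Ly6C was lower by 33.5% and the MHC-II tag (antigen-presenting class II molecules) by 30.5%, each in 10 of 10 mice. The CD115 tag (the CSF-1 receptor, encoded by Csf1r) was lower in 9 mice and level in 1, and the Flt3 and CD11c tags were lower in 7 mice and level in 3, at medians of only 0 to 5 UMIs per mouse in members. These differences depended on how members were taken. Within quintiles of hashtag UMIs in each mouse, CD11b was still lower (ratio of members to remaining cells 0.763, exact sign-flip test, adjusted p = 0.00586), while Flt3, CD115, CD11c, MHC-II and the sum of the 5 tags no longer passed (adjusted p = 0.469, 0.234, 0.417, 0.514 and 0.1 in the exact tests). By the share of Ly6C among all 6 tags, a rule that itself uses the other tags, the ratio of members to remaining cells was above 1, at 2.30 for CD11b, 3.6 for MHC-II, 2.95 for the sum of the 5 tags and 1.31 for hashtag UMIs.

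RNA content was lower in members as well, and also in other selections where the tag sum did not pass as lower. By the share of Ly6C among all 6 tags, RNA UMIs were lower (ratio 0.692, exact sign-flip test, adjusted p = 0.00651) while the other tags summed higher. Only 231 of the members, 30.9%, were in that set, so it describes mostly other cells. Within mouse quintiles of hashtag UMIs, RNA UMIs were lower too (0.802, adjusted p = 0.00586 in the exact test). The values that follow are of the main selection. Median RNA UMIs per cell ran from 6118 to 10416 over mice in members (median 8122) and from 8618 to 15631 in remaining cells (median 9876), lower by 24.0% in 10 of 10 mice, and genes detected were lower by 15.3% in 10 of 10 mice (exact sign-flip tests, adjusted p = 0.00419 each). The mitochondrial share was 3.30% ± 0.14 in members and 3.26% ± 0.10 in remaining cells (SD, n = 10) and did not pass the test (exact sign-flip test, adjusted p = 0.358). In all, 12 of 15 measures passed. The smallest p that 10 mice allow in this test is 0.00195.

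As shares of the 5 other tags, the measures spread in both directions. CD11b made up 49.8% ± 13 of them in members and 55.1% ± 13.7 in remaining cells (SD, n = 10, lower in 9 of 10 mice, exact sign-flip test, adjusted p = 0.00651), and MHC-II 33.7% ± 14.2 against 30.9% ± 13.5 (higher in 10 of 10 mice, adjusted p = 0.00419 in the exact test). The CD11b share missed the threshold without the cells of RNA cluster 2, described below (ratio 0.942, exact sign-flip test, adjusted p = 0.0537). The MHC-II share missed it within quintiles of the 5 other tags in each mouse (adjusted p = 0.0549 in the exact test) and over the pool (adjusted p = 0.0586). It also missed it with a 90% leading hashtag (adjusted p = 0.0586 in the exact test). The share of CD11c was lower in 8 of 10 mice, at a ratio of 0.708 (exact sign-flip test, adjusted p = 0.0195), a call lost with the lowest 5% (adjusted p = 0.142 in the exact test) and with a 90% leading hashtag (adjusted p = 0.205). It was also lost within mouse quintiles of RNA UMIs (adjusted p = 0.0513 in the exact test) and within pool quintiles of other tags and of hashtag UMIs (adjusted p = 0.0879 and 0.169). The share of CD115 did not pass (exact sign-flip test, adjusted p = 0.557), and its direction depended on the selection. It passed as higher within quintiles of RNA UMIs in each mouse (ratio 1.19, adjusted p = 0.00419 in the exact test). It passed as lower within those of the 5 other tags (0.892, adjusted p = 0.0377) and by the share of Ly6C among all 6 tags (0.491, adjusted p = 0.00651 in the exact test). Within mice, the Spearman correlation of the Ly6C tag across cells had a median of 0.43 with hashtag UMIs, 0.31 with RNA UMIs, 0.29 with the 5 other tags and 0.21 with Ly6c2 CPM. These points share a library and a cell's depth and are a description only. Of the members, 32.8% were also in the lowest decile of hashtag UMIs, 31.6% in that of the 5 other tags and 19.7% in that of RNA UMIs. When the lowest decile was taken by the share of Ly6C among all 6 tags instead, 231 cells were common to both sets, 30.9% of the members and 30.8% of the other set. When members were taken within quintiles of the 5 other tags in each mouse, 522 cells were common, 69.9% of the members and 69.2% of that set.

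**Figure D2:**
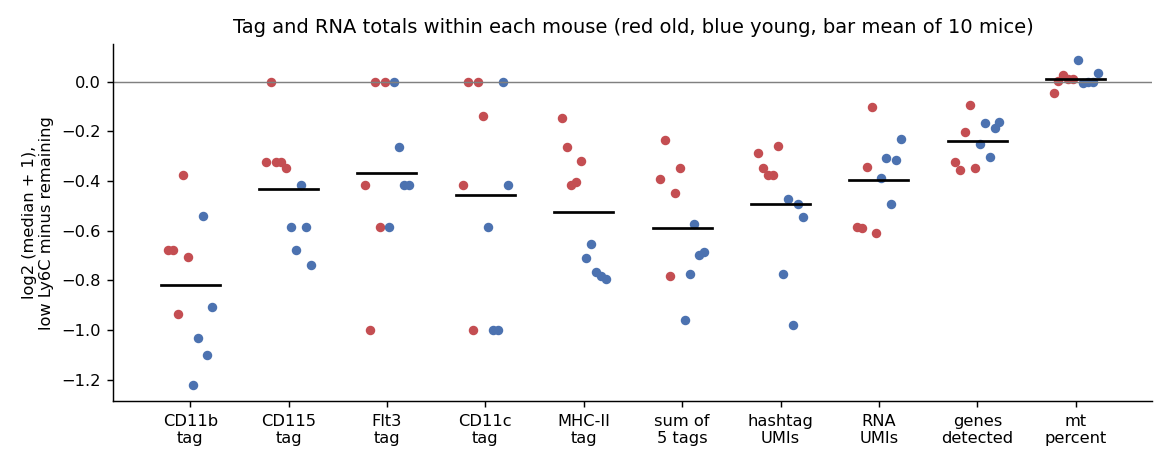
Difference between low Ly6C and remaining cells of the same mouse in log2(median + 1) (y axis) for 5 antibody tags, their sum, hashtag UMIs, RNA UMIs, genes detected and percent mitochondrial UMIs (x axis); each point is 1 mouse (red old, blue young) and each bar the mean of 10 mice. CD11b, MHC-II, the tag sum, the hashtag, RNA UMIs and genes lie below 0 in all 10 mice, and the mitochondrial share lies around 0.

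RNA was a readout that the selection did not use. Counts were summed per mouse and class and compared within mice. Of 8631 genes tested, 298 (3.45%) were higher and 224 (2.6%) lower in members at an adjusted p under 0.05 (edgeR quasi-likelihood test with mouse as a block). The 12 largest rises by the naming rule included Cd7, Flt3, Runx2 and Cd74, and the 12 largest falls included S100a9, S100a8, Fcnb and Lcn2, described below.

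The transcript of the selected antigen itself differed little. Ly6c2 ranged from 1816 to 2767 CPM over mice in members (median 1988) and from 2255 to 3053 CPM in remaining cells (median 2394). The ranges overlapped between mice, but the member value was the lower one within each of the 10 mice, with a log2 fold change of -0.25 ± 0.03 (SE, edgeR adjusted p = 2.12e-07), while the tag that chose the members had a median of 220 against 522. Ly6c1 was near 0 at 1.24 CPM in members and was not tested. Of the 14 Ly6 family genes on the list, 4 were tested and only Ly6c2 passed. Ly6e, another GPI-anchored family member, stood at 2108 CPM in members and 2077 CPM in remaining cells. Among 25 genes of GPI anchor synthesis, 17 were tested and 1 passed, Pigc, a subunit of the first enzyme of the pathway, which was higher in members by 0.39 ± 0.11 in log2 fold change. Over all genes tested 3.45% were higher and 2.6% lower, so no difference of the pathway is read from 1 of 17. The list had a median log2 fold change of 0.043, beside 0.0084 over all genes tested.

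Dendritic-cell genes were among the largest rises. Cd7, a surface protein of T cells and some dendritic cell precursors (chr11:121036747-121039418, minus strand), ranged from 15.2 to 120 CPM in members (median 44.2) and from 0.149 to 15.1 CPM in remaining cells (median 5.16). The lowest member value just exceeded the highest remaining value, and the log2 fold change was 3.07 ± 0.19 (edgeR adjusted p = 8.95e-15). Cd209a (chr8:3743397-3748984, minus strand) ranged from 4.55 to 267 CPM in members (median 101) and from 5.23 to 42.7 CPM in remaining cells (median 25.5). It was higher in 9 of 10 mice by 2.16 ± 0.13 in log2 fold change (edgeR adjusted p = 8.95e-15). The exception was old mouse 1, with 4.55 CPM in members and 5.23 CPM in remaining cells, the mouse with the largest share of members. Flt3, the receptor kinase of dendritic cell development, was higher in 10 of 10 mice by 1.76 ± 0.15, at 7.58 to 39.5 CPM against 2.24 to 10.9 CPM. The Flt3 tag on the same cells had lower medians in 7 mice, a difference lost when hashtag UMIs were matched, as given above. Runx2, a transcription factor of plasmacytoid dendritic cells, was higher by 1.35 ± 0.16.

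The 11 DCMo genes, a list that the study drew from these libraries and that is therefore no independent evidence of a direction, were all tested and all 11 were higher in members, with a median log2 fold change of 0.71. The MHC class II genes H2-Aa, H2-Ab1 and H2-Eb1 were higher by 1.19, 1.14 and 1.28, each in 8 of 10 mice. H2-Aa ranged from 83.0 to 1837 CPM in members and from 61.6 to 1031 CPM in remaining cells, a spread mainly between mice. Cd74, the invariant chain that escorts MHC-II, was higher in 10 of 10 mice, at 596 to 7553 CPM against 349 to 4302 CPM (log2 fold change 1.0 ± 0.08, edgeR adjusted p = 4.27e-12). Thus MHC-II transcripts were higher in members while the MHC-II tag had the lower median in 10 of 10 mice. The lower MHC-II tag was lost when members were taken within quintiles of hashtag UMIs in each mouse (ratio of members to remaining cells 0.957, exact sign-flip test, adjusted p = 0.514) or of the 5 other tags, of which MHC-II is one (1.05, lower in 1 of 10 mice, adjusted p = 0.234 in the exact test). Of 10 conventional dendritic cell genes, 5 were tested and 5 were higher, Cd209a, Flt3, Batf3 (0.56), Clec10a (0.41) and Cst3 (0.26). The untested Clec9a stood at 9.23 and 1.89 CPM, and Xcr1, the receptor that defines cross-presenting dendritic cells, at 0 UMIs in members. Of 8 plasmacytoid genes, the 2 tested, Tcf4 (0.51) and Bst2 (0.40), were higher. Siglech and Ly6d were present at 4.35 and 11.3 CPM in members and were not tested.

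The other leading genes included Dpp4 (a surface peptidase, 0.97), St3gal5 (a sialyltransferase, 0.96), Upb1 (pyrimidine breakdown, 0.93), Tspan13 (0.92), Hpgd (prostaglandin breakdown, 0.85), Ckb (creatine kinase B, 0.76), Bcl11a (a lymphoid and dendritic transcription factor, 0.74) and Cd244 (0.70), each higher in 10 of 10 mice and each past the edgeR threshold. A Cd209a UMI was found in 15.0% of members and 6.72% of remaining cells at median depths of 8689 and 10565 UMIs. In the cluster of T cell genes, which should lack it, the share was 2.74% at a median of 13217 UMIs. With each cell thinned to 2000 UMIs, the shares were 8.61% and 2.77%. A cell without a Cd209a UMI may still express the gene at these depths, so the shares do not show how many members carried the difference.

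Some neutrophil-type genes were lower, namely 4 of the 10 NeuMo genes and the 3 tested of 10 neutrophil genes. S100a9 and S100a8, the calprotectin subunits, neighbours on chromosome 3, were lower in 10 of 10 mice, with log2 fold changes of -2.17 ± 0.21 and -1.84 ± 0.14 (edgeR). S100a9 ranged from 12.1 to 257 CPM in members (median 21.0) and from 35.9 to 1301 CPM in remaining cells (median 263). S100a8 ranged from 24.7 to 211 CPM in members (median 54.0) and from 151 to 891 CPM in remaining cells (median 299). Both ranges overlapped, and the highest member value of S100a9 came from old mouse 3. A few cells carried much of these UMIs, since the top 3 cells held 34.9% of S100a9 in the young remaining cells and 79.1% in the old members. Without 13 cells that held 10 or more UMIs of the granule genes Camp and Ngp together, 1 of them a member, the S100a9 log2 fold change was -1.89 and that of S100a8 -1.58, both still past the threshold. The call of S100a9 was lost when members were taken within each mouse (-1.21, edgeR adjusted p = 0.118), as the lowest 20% (-1.16, adjusted p = 0.108) and within quintiles of the 5 other tags in each mouse (-0.69, adjusted p = 0.546), and by the tag share its direction turned, to 0.82, as did that of Lcn2, to 0.18, neither past the threshold. An S100a9 UMI was found in 15.5% of members, 20.5% of remaining cells and 24.7% of the cells in the cluster of T cell genes. That cluster had the higher median RNA depth, as given above, so these shares are not at equal depth. With cells thinned to equal depth as for Cd209a, the shares were 3.23%, 5.29% and 2.74%. Both classes then exceeded the background, but that background rests on 2 of 73 cells. No difference is read from these shares. Fcnb (ficolin B, -0.95), Lcn2 (lipocalin 2, -0.66), Chil3 (a chitinase-like protein of maturing myeloid cells, -0.62), Slpi (a protease inhibitor, -0.48) and Cebpe (a granulocyte transcription factor, -0.48) were lower in every mouse. So were Tfec (-0.60), Nek2 (a mitotic kinase, -0.54), Hsd11b1 (-0.50), Sgms2 (-0.49) and Ccdc125 (-0.48). Of 10 NeuMo genes, again a list drawn by the study from these libraries, 10 were tested and 4 were lower, Elane (-0.67), Prtn3 (-0.48), S100a8 and S100a9, and none was higher. The directions of Elane and Prtn3 turned when members were taken within quintiles of hashtag UMIs in each mouse, to 0.028 and 0.064. Of 10 neutrophil genes 3 were tested, Camp, Mmp8 and Lcn2, and 3 were lower. Their list summed to 118 ± 67.5 CPM in members and 393 ± 408 CPM in remaining cells (SD, n = 10), with Ly6g, the gene of the marker excluded by the sort, at 0.451 and 0.372 CPM. The sum in remaining cells reached 1517 CPM in 1 mouse, and the top 3 cells held 86.0% of the Camp UMIs in old and 52.0% in young remaining cells.

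**Figure D3:**
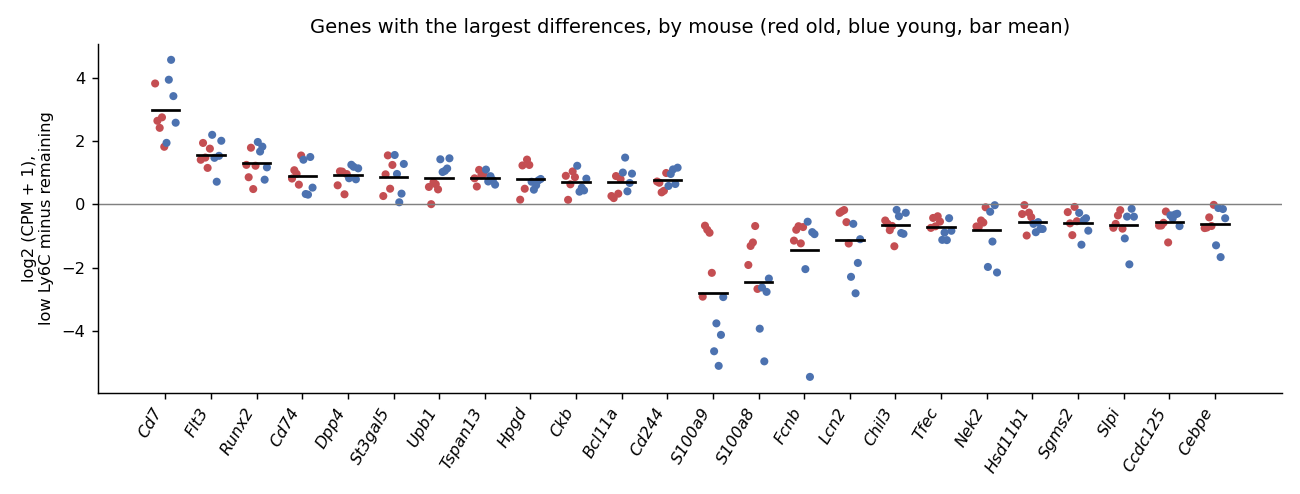
Difference between low Ly6C and remaining cells of the same mouse in log2(CPM + 1) (y axis) for the 12 genes with the largest rises and the 12 with the largest falls by the naming rule (x axis); points are 10 mice (red old, blue young), bars their means. Cd7 lies highest, at 3.07 in the fitted log2 fold change, and S100a9 lowest at -2.17.

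Of the monocyte genes, Lyz2, lysozyme, stood at 23262 CPM in members and 23287 CPM in remaining cells. Of 10 classical monocyte genes, 2 were higher, Ccr2 by 0.19 and Csf1r by 0.20, and 5 were lower, Ly6c2, Chil3, F13a1 (-0.26), Mgst1 (-0.20) and Fn1 (-0.19). The directions of Ccr2 and Csf1r turned when members were taken within quintiles of RNA UMIs in each mouse, to -0.11 and -0.050. Of 12 genes of Ly6Clow monocytes, 8 were tested. Cx3cr1, the fractalkine receptor, was higher in 10 of 10 mice by 0.59 ± 0.06, at 91.8 to 175 CPM against 54.4 to 113 CPM, and Nr4a1 and Ace were higher by 0.53 and 0.80. In members, Ace was at 34.3 CPM in old mouse 2 and at 10.6 CPM or less in the other mice. It was lower in members than in remaining cells in old mice 1 and 5 and in young mouse 1. Pglyrp1 was lower (-0.37), at 44.5 and 58.0 CPM, and Treml4, Spn, Adgre4 and Itgal did not pass. Cd300e, Fabp4 and Cd36 were at 0.072, 0.696 and 0.991 CPM in members. The defining set of Ly6Clow monocytes was thus not present as a whole, and the cells are not given that name.

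Of 10 leading genes of another monocyte cluster of the study, headed by Apoe and again drawn from these libraries, 8 were higher, among them AF251705 (0.52), Sirpb1c (0.42), Gngt2 (0.39) and Apoe (0.37). The direction of Apoe turned within quintiles of RNA UMIs, to -0.48. Of 10 leading genes of the study's cluster 0, which include Ifitm6 and Fn1, 3 were higher (Wfdc17, Ccl6 and Ifitm6) and 2 lower (Chil3 and Fn1). Of 10 interferon-stimulated genes, 5 were higher, Ifit3 (0.70), Usp18 (0.45), Isg15 (0.38), Irf7 (0.24) and Ifi47 (0.19), each in only 6 to 9 of the 10 mice. Genes of G2 and mitosis were lower in 10 of 12 tested, with a list median of -0.26. Ube2c, which drives cyclin destruction, ranged from 229 to 557 CPM in members and from 505 to 640 CPM in remaining cells, and was lower in 9 of 10 mice (log2 fold change -0.38 ± 0.07). Of 12 S phase genes only Rrm2 was lower, at -0.22. Among 15 monocyte transcription factors, 14 were tested. Irf4 (0.76), Nr4a1, Tcf4 and Spi1 (0.15) were higher and Cebpe and Cebpb (-0.21) lower. The progenitor list held 1 higher gene, Flt3, and 1 lower, Cebpe, of 8 tested.

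In the main selection, transcripts of the other antibody targets did not follow the raw counts of their tags. As a share of the 5 other tags, MHC-II was higher in members, as were its transcripts (exact sign-flip test, adjusted p = 0.00419). By the tag share its count was higher too, at a ratio of 3.6. That rule divides by a sum that holds the MHC-II tag, so it favours cells with much of it and the ratio is no support. The lower Flt3 and MHC-II tag counts were lost within mouse quintiles of hashtag UMIs, as given above. Itgam, which encodes CD11b, stood at 107 CPM in members and 108 CPM in remaining cells (log2 fold change -0.044 ± 0.05, edgeR adjusted p = 0.780), while the CD11b tag was lower by 43.3%. Csf1r was higher by 0.20 while the CD115 tag was lower in 9 of 10 mice. The CD115 tag call was lost within quintiles of hashtag UMIs, as given above, within those of the 5 other tags (adjusted p = 0.104 in the exact sign-flip test) and with a 90% leading hashtag (adjusted p = 0.0746). Of the 9 genes on the list of antibody targets, 7 were tested, 5 were higher and 1, Ly6c2, was lower. The hashtag antibodies bind MHC class I and CD45. Of 5 transcripts on the list of hashtag antigens, 4 were higher in members, Ptprc (0.21), H2-K1 (0.21), H2-D1 (0.13) and B2m (0.12), while hashtag UMIs were lower by 28.8%. The other gene on the list, Cd44, encodes neither target and did not pass. Among 10 stress and immediate early genes, 7 were tested and 1, Junb (0.20), was higher.

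Markers of lymphoid, basophil, mast, eosinophil, erythroid and macrophage cells had no gene past the threshold between classes, while dendritic lists were higher in members and the neutrophil list, given above, lower. The T or NK list, led by Ccl5, summed to 76.2 ± 77.0 CPM in members and 50.4 ± 44.8 CPM in remaining cells (SD, n = 10, higher in 5 of 10 mice), with Gzma at 0 throughout. The B or plasma list, led by Cd79b, summed to 43.7 ± 29.7 and 33.9 ± 6.3 CPM, with Vpreb3 at 0 in members. The receptor genes Trbc2, Ighm and Iglc2 of these lists were not analysed here. Basophil or mast cell genes summed to 7.73 and 8.66 CPM with Fcer1a at 0, eosinophil genes to 1.24 and 1.42 CPM with Epx at 0, erythroid genes to 11.5 and 8.23 CPM, and macrophage genes, mostly Adgre1, to 63.8 and 62.7 CPM with Mertk at 0 in members. In these 6 lists, 5 genes were tested in all. The conventional dendritic list, which monocytes share through Cst3, summed to 3644 ± 409 CPM in members and 3000 ± 93.0 CPM in remaining cells, and the plasmacytoid list, led by Bst2, to 370 ± 81.8 and 271 ± 33.3 CPM, both higher in 10 of 10 mice. Cells with 3 or more genes of the T or NK, B or plasma, basophil or mast, or eosinophil lists made up 1.47% of members and 1.1% of remaining cells, and without them 311 genes were higher and 238 lower.

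Clustering by RNA located where members were enriched. Of 11 clusters, 2 differed in share between members and remaining cells past the threshold. Cluster 2 (183 cells, leading genes Cd7, Cd209a, Cd209d, Clec9a, Flt3 and Runx2) held 5.00% to 23.5% of the members of a mouse (median 11.5%) and 0.248% to 2.72% of its remaining cells (median 1.61%). No member value overlapped the remaining values, and the difference was 10.7 ± 5.1 percentage points (SD, n = 10, higher in 10 of 10 mice, exact sign-flip test, adjusted p = 0.0107 over 11 clusters). The difference was smaller by the tag share, at 5.64% and 2.44%, and with a 90% leading hashtag, at 6.94% and 0.871%, and passed in both. Of the cells in this cluster 44.3% were members, between 25% and 83.3% by mouse. Its median Ly6C tag was 288 and its median CD11b tag 20, against 220 and 23 over all members, while its RNA depth was 13275 UMIs, above the median of the pool's remaining cells. Cluster 8 (779 cells, leading genes Esco2, Ccne1 and Rrm2, of S phase) held 5.79% ± 3.07 of the members and 11.3% ± 2.16 of the remaining cells (SD, n = 10, lower in 10 of 10 mice, exact sign-flip test, adjusted p = 0.0107). This call was lost when members were taken within quintiles of RNA UMIs in each mouse, at 10.2% and 10.8% (higher in 5 of 10 mice, exact sign-flip test, adjusted p = 0.754), and within those of hashtag UMIs, at 8.65% and 10.9% (adjusted p = 0.101 in the exact test).

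Clusters 5 (Aspm, Cenpf and other mitotic genes) and 6 (Mpo, S100a9, Elane) held 7.89% and 7.88% of members and 14.4% and 11.5% of remaining cells. Both missed the threshold (exact sign-flip test, adjusted p = 0.0537 each) and were lower in 9 and 8 of 10 mice. In several other selections cluster 5 passed as lower, such as the lowest 20% (adjusted p = 0.0143 in the exact sign-flip test). It passed within mouse quintiles of RNA UMIs (9.01% and 14.2%, adjusted p = 0.043), but not without cluster 2 (adjusted p = 0.146 in the exact test). Cluster 6 passed as lower with the lowest 20% (adjusted p = 0.0172) and within mouse quintiles of the 5 other tags (7.20% and 11.6%, adjusted p = 0.00859 in the exact test). The direction of cluster 6 turned within quintiles of RNA UMIs in each mouse, at 13.9% and 10.9% (exact sign-flip test, adjusted p = 0.0816), and within those of hashtag UMIs, at 11.5% and 11.1%. Cluster 0 (H2-Eb1, H2-Aa, Tppp3) held 16.4% ± 12.3 and 13.7% ± 8.46 (exact sign-flip test, adjusted p = 0.255). Within quintiles of the 5 other tags in each mouse, cluster 0 passed as well, at 25% and 12.9% (exact sign-flip test, adjusted p = 0.00537), as it did within those of hashtag UMIs, at 25.3% and 12.9% (adjusted p = 0.00716 in the exact test), with the lowest 20%, at 18.2% and 12.8% (adjusted p = 0.0172), and with a 90% leading hashtag, at 27.0% and 21.3% (adjusted p = 0.043). Within quintiles of RNA UMIs it was at 12.8% and 14.3%, higher in 1 of 10 mice (exact sign-flip test, adjusted p = 0.183). By the tag share, cluster 0 held 54.6% of the members and 9.79% of the remaining cells (higher in 9 of 9 mice, exact sign-flip test, adjusted p = 0.00716). That rule divides by the other tags as well. Cluster 0 had a median MHC-II tag of 48 and a median 5-tag sum of 148, against 24 and 79 over all cells. The rule thus favours this cluster through those tags, and the test does not speak to Ly6C alone. Cluster 0 held a larger mean share of members than cluster 2 under both rules, at 54.6% and 5.64% by the tag share and at 16.4% and 12.3% in the main selection. Clusters 1 (Cxcl10, Ifit3), 3 (Hist1h2bc), 4 (Hpgd, Vcan), 7, 9 (Ung, Cdc6) and 10 (Siglech, Ly6d, only 10 cells) did not pass. Cluster 3 passed as lower within mouse quintiles of hashtag UMIs (5.89% and 13.8%, exact sign-flip test, adjusted p = 0.00716) and by the tag share (adjusted p = 0.00716). Cluster 9 passed as lower within mouse quintiles of the 5 other tags (2.57% and 6.03%, adjusted p = 0.00537) and of hashtag UMIs (adjusted p = 0.0344 in the exact test). Within mouse quintiles of RNA UMIs neither passed (exact sign-flip test, adjusted p = 0.0816 and 0.203). Cluster 4, the largest, held 28.8% of members and 25.8% of remaining cells, and its direction depended on the selection. It passed as higher without cluster 2 (33.3% and 26.2%, exact sign-flip test, adjusted p = 0.0215) and with a 90% leading hashtag (37.6% and 30.6%, adjusted p = 0.043), and as lower within mouse quintiles of RNA UMIs (19.3% and 26.8%, adjusted p = 0.0215) and of hashtag UMIs (23.3% and 26.3%, adjusted p = 0.0394) and by the tag share (17.6% and 25.3%, adjusted p = 0.0376). Cluster 7 (73 cells, Ccl5, Cd3g, Cd3d) had the highest cluster medians of the Ly6C tag, at 716, and of hashtag UMIs, at 1207, and its Ly6c2 RNA, at 2039 CPM, was close to the member mean of 2069 CPM. It held 8 members.

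**Figure D4:**
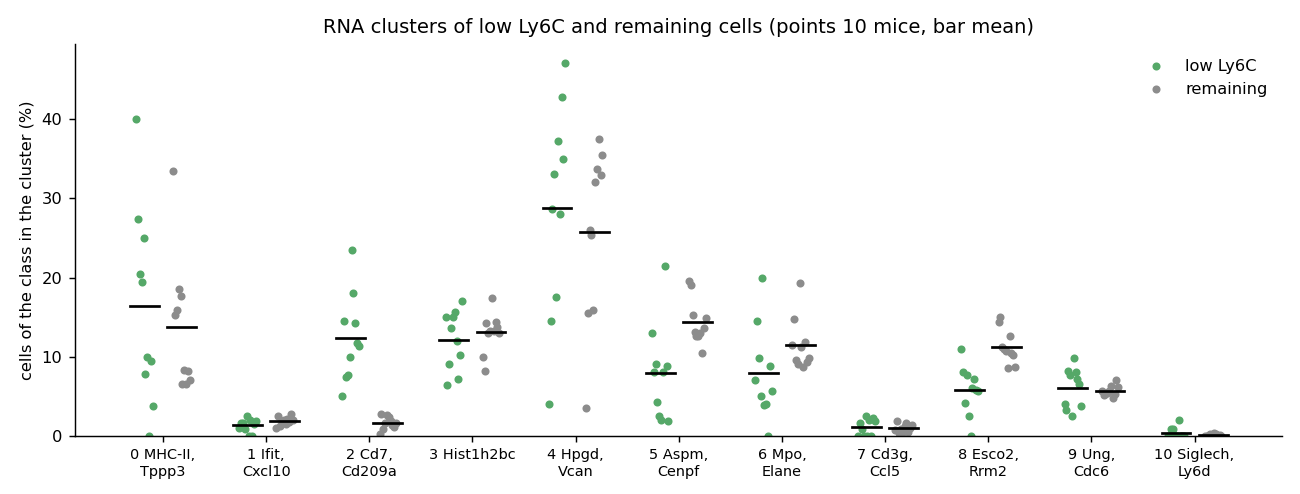
Percent of each mouse's low Ly6C cells (green) and remaining cells (grey) that fall in each of 11 RNA clusters (y axis), clusters labelled by number and leading genes (x axis); points are 10 mice and bars their means. In cluster 2 all 10 low values lie above all 10 remaining values, with means of 12.3% and 1.63%, and in cluster 8 the means are 5.79% and 11.3%.

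Few gene differences passed once cluster composition was matched, a step that removes RNA differences by construction because the clusters were made from RNA. The lowest decile was taken within each RNA cluster, which matched the composition of members and remaining cells over the pool, not within each mouse. Cluster 4, for example, held 28.9% and 25.8% on average over mice. With this selection 642 of the 747 members stayed members, but only 1 of 8667 genes passed, Cd74, at a log2 fold change of 0.56 (594 genes had an unadjusted p under 0.05 in edgeR). The fold change of Ly6c2 was then -0.13 (edgeR adjusted p = 0.197) and that of Cd209a 0.81 (edgeR adjusted p = 0.186). With only cluster 2 left out, 204 genes were higher and 220 lower, and 282 of these were among the 522 of the main comparison. Cd209a was at 1.28 and Ly6c2 at -0.17, both past the threshold.

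Over deciles of the Ly6C tag, Ly6c2 RNA averaged 2090 ± 251 CPM in the lowest decile and 2670 ± 311 CPM in the highest (mean ± SD over 10 mice), Cd209a 118 ± 86.9 in the lowest, 97.6 ± 72.6 in the next, 48.3 ± 36.2 in the one after, and 7.76 ± 6.81 in the highest. S100a9 had no such order, at 48.0 ± 74.3 CPM in the lowest decile, 1209 ± 3606 in the next, 20.4 ± 13.9 in the one after and 799 ± 1044 in the highest. It stood at 18.8 CPM in the 100 cells just inside the threshold and 1254 CPM in the 100 just outside. Those band values are pooled over mice and can rest on single cells, as given above. Cluster 2 made up 10.8%, 6.14% and 2.80% of the 3 lowest deciles and 0.267% of the highest, and it was 10% of the cells just inside the threshold and 3% of those just outside. In the 100 lowest cells cluster 2 was only 5%, and Cd209a stood at 64.1 CPM, against 76.8 CPM just inside and 70.6 CPM just outside. H2-Aa went from 543 ± 560 to 139 ± 156 CPM with a spread as large as its mean. Mki67, the proliferation marker, was 240 ± 49.4 CPM in the lowest decile and 444 ± 64.5 CPM in the highest, and lay between 212 and 221 CPM in deciles 3 to 6. Hashtag medians went from 215 to 427.5 and RNA depth from 8707 to 17165 UMIs across the same range. The part of depth and staining in these profiles was not tested here beyond the matched selections given above.

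**Figure D5:**
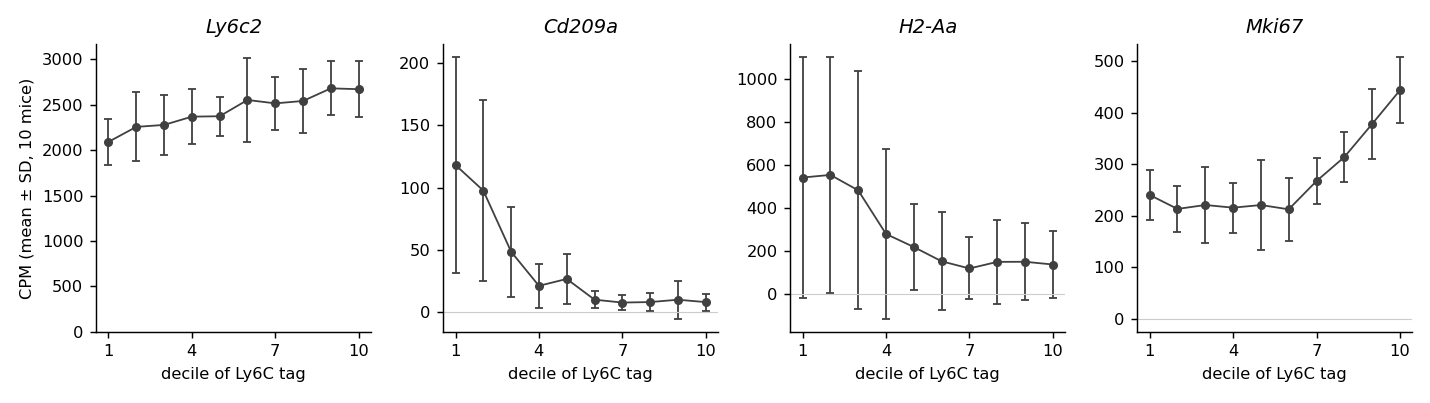
CPM (y axis, mean ± SD of 10 mice, linear scales that differ between panels) of Ly6c2, Cd209a, H2-Aa and Mki67 by decile of the Ly6C tag from lowest to highest (x axis). Cd209a goes from 118 in the lowest decile to 7.76 in the highest, while Ly6c2 goes from 2090 to 2670.

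Old mice had more low Ly6C cells. Members made up 19.9%, 14.5%, 11.8%, 10.7% and 8.0% of the cells of old mice 1 to 5, and 8.32%, 9.36%, 5.76%, 7.62% and 7.20% of the cells of young mice 1 to 5. The groups overlapped only through old mouse 5. The means were 13% ± 4.5 and 7.65% ± 1.34 (SD, n = 5 each), a difference of 5.31 percentage points (two-sided exact permutation test, p = 0.0238, where 0.00794 is the smallest possible). Without old mouse 1 the difference was 3.58 points (exact permutation test, p = 0.0397), and without young mouse 3, 4 or 5 the test missed the threshold (exact p = 0.0635, 0.0556 and 0.0556, at differences of 4.84, 5.31 and 5.20 points). The call was also lost when members were taken within quintiles of hashtag UMIs over the pool, at 12.6% and 7.78% (exact permutation test, p = 0.175). Within pool quintiles of the 5 other tags it was 14.2% and 6.07% (exact permutation test, p = 0.00794). By the tag share it was 18.5% and 3.69%, a difference of 14.8 points (exact permutation test, p = 0.0159). That share also falls as the other tags rise, so it does not measure Ly6C alone. Old mouse 1 had the highest median of the 5 other tags, at 160. The median Ly6C tag was 417, 471, 473, 477 and 519.5 in old mice and 525, 511.5, 521, 513 and 523.5 in young mice. Median hashtag UMIs were 310, 280, 229, 250 and 223 in old mice and 347, 319.5, 261, 323 and 272 in young mice, and the 5 other tags together 160, 55, 57, 97 and 106 against 68, 57, 60, 83 and 79. Ly6C tag counts and hashtag counts thus both tended to be lower in old mice, and a difference in staining and one in surface Ly6C cannot be told apart for the part they share. Median RNA UMIs per cell ran the other way without overlap, at 10031.5 to 14815 in old mice and 8393 to 9430 in young mice. Within 7 clusters that had 10 or more cells in every mouse, the old mean exceeded the young mean in 7, for example 16.6% against 6.73% in cluster 0 and 10.8% against 3.82% in cluster 6. None passed after adjustment over the 7 clusters (exact permutation tests, smallest adjusted p = 0.0556).

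Within members, H2-Aa, H2-Ab1 and Cd74 were higher in old mice, and Fosb, Jun and Fos were lower. Of 6341 genes tested, 24 rose with age (0.378%) and 14 fell (0.221%), at 14 to 137 cells per mouse. In the remaining cells 285 of 10250 genes rose (2.78%) and 256 fell (2.5%). Those sums hold more UMIs, so the counts are not comparable as effect sizes. Without old mouse 1 or without young mouse 5, 25 genes passed in members in place of 38. By the tag share no gene passed (365 genes had an unadjusted p under 0.05 in edgeR), and within pool quintiles of the 5 other tags 14 did. H2-Aa stood at 1837, 848, 335, 400 and 1093 CPM in members of old mice and at 143, 83.7, 83.0, 486 and 131 CPM in young mice. The groups overlapped through young mouse 4, and the log2 fold change was 2.01 ± 0.42 (SE, edgeR adjusted p = 0.0174), beside 2.21 ± 0.38 in remaining cells. Cd74 and H2-Ab1 rose by 1.86 and 1.98. H2-Eb1 had a log2 fold change of 1.80 ± 0.52 and did not pass in members (edgeR adjusted p = 0.167). With AW112010 (1.85), 4 of the 11 DCMo genes rose in members, and Cd209a fell.

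Cd209a was the gene that set members of old and young mice apart against this direction. It stood at 4.55, 78.5, 34.1, 44.6 and 90.2 CPM in members of old mice and 168, 207, 267, 111 and 151 CPM in young mice, with no overlap. The log2 fold change was -1.88 ± 0.36 (SE, edgeR adjusted p = 0.00923), beside -0.95 ± 0.32 in remaining cells (edgeR adjusted p = 0.106). The call in members was lost with DESeq2 (adjusted p = 0.24), without cluster 2 (-1.29, edgeR adjusted p = 0.5) and with members taken within each mouse (-1.53, edgeR adjusted p = 0.053). The difference between these effects did not pass (edgeR interaction, adjusted p = 0.691). Cluster 2, in which Cd209a is a leading gene, held 5.00%, 14.5%, 7.38%, 7.63% and 10.0% of the members of old mice and 23.5%, 18%, 14.3%, 11.7% and 11.3% of those of young mice. These are 2 to 16 cells per mouse. Upb1, another leading gene of that cluster, fell with age in members (log2 fold change -1.34 ± 0.16, edgeR adjusted p = 1.61e-04), with 31.2 to 51.0 CPM in old and 92.2 to 141 CPM in young mice. In remaining cells its log2 fold change was -0.58, and it was among the few genes whose age effect differed between the classes (edgeR interaction -0.75 ± 0.16, adjusted p = 0.0318). That interaction call was lost without the 13 granule-rich cells (-0.75, edgeR adjusted p = 0.0567), with members taken within each mouse (-0.74, adjusted p = 0.366) and without cluster 2 (-0.0039, adjusted p = 1.0). Hpgd fell, at 13.6 to 60.5 CPM against 73.7 to 120 CPM (log2 fold change -1.34, and -1.61 in remaining cells).

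The largest rise was Ifitm1, an interferon-induced membrane protein, at 114, 30.7, 29.5, 51.0 and 158 CPM in members of old mice and 4.93, 15.9, 9.22, 7.24 and 8.18 CPM in young mice (log2 fold change 3.02 ± 0.54, edgeR adjusted p = 0.00592, beside 2.54 in remaining cells). C130026I21Rik (2.71) and A530040E14Rik (2.28) rose to a like extent in remaining cells (2.25 and 2.04). Tppp3 rose by 1.92 in members and 0.64 in remaining cells, and the interaction did not pass (edgeR adjusted p = 0.875). Ccl3, an inflammatory chemokine, fell in both classes (-1.93 in members, -1.62 in remaining cells), as did the immediate early gene Fosb (-1.33 and -0.95). Of 7 stress and immediate early genes tested, 3 fell in members, Fosb, Jun (-1.01) and Fos (-0.76), none rose, and the list median was -0.75 beside 0.0026 over all genes tested. In remaining cells 6 of 10 fell, none rose, and the list median was -0.60. Of the 38 genes called with age in members, 34 were also called in remaining cells. Klf4, a transcription factor of the monocyte lineage, fell (log2 fold change -0.76). Of the classical monocyte list only Vcan rose (1.70), of the list headed by Apoe Pla2g7 (1.10) and Tppp3, of the hashtag antigens H2-K1 (0.66) and B2m (0.40). Of the neutrophil list 2 genes were tested in members and 1, Lcn2, rose (1.42, edgeR adjusted p = 0.0115). No member gene of the Ly6Clow, NeuMo, S phase or mitosis lists passed with age. Ly6c2 had a log2 fold change of 0.18 with age in members (edgeR adjusted p = 0.397) and 0.26 in remaining cells.

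The age effect differed between members and remaining cells for 7 of 8997 genes (0.0778%, edgeR interaction). Cxcl10, an interferon-induced chemokine (chr5:92346638-92348889, minus strand), stood at 46.3, 76.1, 37.8, 19.9 and 46.8 CPM in members of old mice and at 4.93, 3.98, 9.22, 13 and 12.3 CPM in members of young mice, with no overlap. In remaining cells it stood at 35.3, 10.3, 15.6, 14.2 and 29.9 CPM in old and at 7.41, 28.1, 52.1, 33.8 and 12.4 CPM in young mice. The log2 fold changes with age were 2.10 ± 0.37 and -0.28 ± 0.39, and their difference 2.44 ± 0.41 (edgeR adjusted p = 0.00135). The old members held 225 Cxcl10 UMIs in 33 of 442 cells, of which 3 cells held 55.6%. DESeq2 did not call it (adjusted p = 1.0), nor did edgeR without young mouse 4 (adjusted p = 0.136). S100a8, S100a9, Lcn2, Camp and Ngp, all neutrophil-type genes, and Upb1 were the other calls, and without young mouse 4 only 4 calls were left. In old members 269 of 422 S100a9 UMIs and 81 of 96 Ngp UMIs sat in 1 cell each. Without the 13 granule-rich cells, Cxcl10 was the 1 gene still called. Cxcl10 was not called with the lowest 20% (0.78), with members taken within each mouse (0.66), within mouse quintiles of RNA UMIs (1.05) or of other tags (2.15), by the tag share (3.74), within RNA clusters (2.33) or with a 90% leading hashtag (2.79).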

How the data were processed

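Per the study's methods, libraries were made with 10x Genomics 3' chemistry, and the authors counted UMIs per gene and tag with Cell Ranger 4.0.0 and STAR 2.5.1 on mm10 (the submitters' processing notes), although the header of the deposited female matrix names another Cell Ranger release. The deposited counts are whole UMI numbers, not normalized. The methods used here do not describe the 6 surface tags. When cells were stained with them, relative to pooling and sorting, is not stated. The sort used antibodies to CD11b, CD115 and Ly6C. Whether these compete with the tags of the same targets is not stated and was not tested, which limits what those tag counts mean. Cells were filtered as described above, and members were the values at or under the tag threshold nearest to 10%. Members, gene lists and tests were chosen with earlier results of these data known. Gene counts were summed per mouse and class (at least 10 cells) and fitted with edgeR 4.0.16 (filterByExpr by class, TMM, quasi-likelihood F test, Benjamini-Hochberg adjustment over all genes tested, R 4.3.3). DESeq2 1.42.0 was the alternative. Named genes were list members plus the 12 largest differences each way with an adjusted p under 0.05, the same direction in 10 mice and at least 20 CPM in the higher class. With age the 5 largest without overlap were named. Medians per mouse were compared as log2(median + 1) with exact sign-flip tests and shares with exact permutation tests. Cells were clustered with scanpy 1.11.5 (counts scaled to 10000 per cell, 2000 variable genes, 20 components, 15 neighbours, Leiden resolution 0.5). Gene positions are those of GENCODE (GRCm38). Tests were checked on simulated data.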

Additional observations from a re-analysis of the deposited data

Results flagged for a closer look

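Values of 39 groups of mice were screened for a mouse far from the others, a screen that chance trips in about 1 in 20 groups, and 4 stood out. In the log2(CPM + 1) difference between members and remaining cells, young mouse 3 was far below the others for Fcnb (-5.45) and for Slpi (-1.90), and old mouse 5 for Ccdc125 (-1.21) and for Ly6c2 (-0.53). Young mouse 3 had 14 members, in which no Fcnb UMI was counted.

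The deficit of 3 tag totals in members differed with age, a comparison added after the values were seen. The log2 difference between members and remaining cells was -0.31 ± 0.11 in old and -0.74 ± 0.06 in young mice for the MHC-II tag (SD, n = 5 each, old minus young 0.43), -0.26 ± 0.15 and -0.60 ± 0.12 for the CD115 tag (0.34), and -0.33 ± 0.05 and -0.65 ± 0.22 for hashtag UMIs (0.32). Each had no overlap between the ages (exact permutation tests, adjusted p = 0.0265 over 10 measures, from the smallest p that 5 against 5 allows). RNA UMIs did not pass, at -0.45 and -0.35 (exact permutation test, adjusted p = 0.476).

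The age effect on 7 transcripts differed between members and remaining cells in the edgeR interaction. The difference in log2 fold change was 4.86 for Ngp, 2.98 for Camp, 2.73 for S100a9, 2.44 for Cxcl10, 1.56 for S100a8, 1.21 for Lcn2 and -0.75 for Upb1. Camp stood at 6.82, 3.68, 47.7, 1.59 and 0 CPM in members of old mice and at 0, 5.98, 0, 5.07 and 12.3 CPM in members of young mice. Without 13 cells with 10 or more UMIs of Camp and Ngp, the values were 0.63 for S100a9, 0.83 for S100a8, 0.41 for Lcn2 and -0.38 for Camp, none past the threshold, and -0.75 for Upb1 (edgeR adjusted p = 0.0567).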

How the results depend on the processing

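Alternatives chosen after seeing the data were the selections by hashtag UMIs, RNA UMIs, pool quintiles and RNA cluster, the removal of cluster 2 or of granule-rich cells, and the mean of logs. In place of 522 genes that differed between classes, 3500 passed by the share of Ly6C among 6 tags (422 of them among the 522), 1118 and 192 with the lowest 20% and 5%, 163 with no replicate block, 108 after thinning, 1 within RNA clusters, 1226 and 1060 within mouse quintiles of RNA UMIs and of other tags, and 840 within pool quintiles of other tags. Leaving out 1 mouse gave 422 to 565. The 38 genes that changed with age in members were 0 by the tag share (365 genes at an unadjusted p under 0.05), 89 and 11 with the lowest 20% and 5%, 171 without a filter, 21 within RNA clusters, 21 and 14 within pool quintiles of hashtag UMIs and of other tags, 23 without cluster 2, and 25 to 49 without 1 mouse. The 7 interaction genes were 1 with DESeq2, by the tag share, with a 90% leading hashtag and without granule-rich cells, 0 with the lowest 20%, within RNA clusters, within each mouse and within mouse quintiles of RNA UMIs (edgeR, 337 to 379 genes at an unadjusted p under 0.05), 13 without a filter, 3 and 4 within mouse and pool quintiles of other tags, 2 within pool quintiles of hashtag UMIs, and 4 to 9 without 1 mouse. The 12 measures that passed were 13 by the tag share with the tags turned, 7 within mouse quintiles of other tags and with a 90% leading hashtag, 6 within mouse quintiles of hashtag UMIs, 5 within either pool quintile, and 12 to 13 without 1 mouse. The 2 clusters were 5 with the lowest 20%, 9 by the tag share, 7 within mouse quintiles of other tags and pool quintiles of hashtag UMIs, 6 within mouse quintiles of hashtag UMIs, pool quintiles of other tags and with a 90% leading hashtag, and 2 to 3 without 1 mouse. The age difference in the share of members, 5.31 points, was 14.8 by the tag share, 8.86 and 2.96 with the lowest 20% and 5%, 8.12 within pool quintiles of other tags, 4.83 points within pool quintiles of hashtag UMIs (exact permutation test, p = 0.175) and 3.58 to 6.55 points without 1 mouse. Selection within a mouse fixes the share of members and gives no value. The tag share also moves with the other tags, as given above. The causes were not tested.

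Directions turned as follows. In members against remaining cells, by the tag share, S100a9 was at 0.82 and Lcn2 at 0.18, and the ratios of the tags were above 1 in place of below, at 2.30 for CD11b, 3.6 for MHC-II, 2.95 for the 5-tag sum, 1.31 for hashtag UMIs, 1.71 for Flt3, 1.54 for CD11c and 1.08 for CD115 (not past the threshold). Within RNA clusters Lcn2 was at 0.31 and Apoe at -0.0095. Within mouse quintiles of hashtag UMIs Elane was at 0.028 and Prtn3 at 0.064, and within the pool quintiles at 0.19 and 0.15. Within mouse quintiles of RNA UMIs Prtn3 was at 0.073, Apoe at -0.48, Ccr2 at -0.11 and Csf1r at -0.050. For the interaction, Lcn2 was at -0.65 with the lowest 20%, -2.26 by the tag share, -0.88 within each mouse, -0.72 and -0.52 within mouse quintiles of other tags and RNA UMIs, and -0.91 within RNA clusters. S100a8 was at -2.36 by the tag share, -0.18 within each mouse, -0.060 within quintiles of RNA UMIs and -0.78 within RNA clusters, and S100a9 at -0.035 with a 90% hashtag, -2.21 by the tag share and -0.23 within RNA clusters. Camp was at -1.39 with a 90% hashtag, -1.56 with the lowest 20%, -1.33 by the tag share, -1.09 within each mouse, -0.80 and -1.0 within quintiles of other tags and RNA UMIs, -1.47 within RNA clusters and -0.38 without granule-rich cells. Ngp was at -0.57, -0.90, -0.37, -0.24, -0.34 and -0.99 with a 90% hashtag, the lowest 20%, within each mouse, within quintiles of other tags and of RNA UMIs, and within RNA clusters. At 14 to 137 member cells a mouse, differences in genes under about 20 CPM are limited by counting error.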
